A study of Homo sapiens with 23 samples.

Results

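The genes of ribosome biogenesis and the nucleolus were followed across 2 AML cell lines, 2 times and CIGB-300 treatment. The group holds 40 genes named by symbol, and a member was measured where a probe set of the array carries that symbol as its only gene. By this rule 34 of the 40 genes were measured, each by 1 probe set, among 21448 probe sets tested. NOP56, DKC1, WDR43, BOP1, GNL3 and EBNA1BP2 had no probe set of this kind and were not analysed here. RNA of HL-60 cells and of OCI-AML3 cells was hybridized to Clariom S HT arrays after 30 min or 3 h, either without peptide or with 40 μM CIGB-300. Both are human AML lines, and HL-60 is known for an amplified MYC gene and OCI-AML3 for a mutated NPM1 gene. CIGB-300 is a synthetic peptide that inhibits phosphorylation by protein kinase CK2, of which the nucleolar protein NPM1 is a substrate. Each of the 8 combinations of cell line, time and agent was represented by 3 arrays, or by 2 in the case of OCI-AML3 without peptide at 30 min, where a quality control by the authors removed replicate 1. Each AML type is represented by 1 cell line, and nothing states that replicates came from separate cultures, so p-values measure the spread between these samples, which may be technical.

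Ribosomes are made in the nucleolus, where RNA polymerase I transcribes a long precursor of ribosomal RNA. Small nucleolar ribonucleoproteins (snoRNPs) modify this precursor, a large particle called the small subunit processome folds and cuts it, and separate sets of factors mature the 40S and 60S subunits. Growing cells keep these genes highly expressed, and MYC is a well-known activator of many of them. The measured members comprised 7 of 7 listed genes of RNA polymerase I transcription, 4 of 4 nucleolar phosphoproteins with the helicase DDX21, 2 of 3 box C/D and 3 of 4 box H/ACA snoRNP proteins. They also comprised 7 of 8 genes of the small subunit processome, 4 of 4 of late 40S assembly and 7 of 10 of 60S assembly.

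Values are deposited log2 signals, so a difference of 1 is a 2-fold change, and they were compared for each probe set but not between probe sets. Array medians over all probe sets ranged from 5.38 to 5.44 for HL-60 and from 5.52 to 5.60 for OCI-AML3 arrays. The lowest correlation between arrays of a group was 0.990. Of the measured members, 33 had a mean signal above the median of all probe sets, and TAF1A lay below it with a mean of 5.19, where detection was not tested. The median within-group SD was 0.114 over the members and 0.219 over all probe sets. MEIS1, a HOX cofactor known to be high in OCI-AML3, was at 7.38 to 8.06 in OCI-AML3 and 3.04 to 4.43 in HL-60. The myeloid enzyme gene MPO was at 13.0 to 13.1 in HL-60 but at 5.29 to 7.53 in OCI-AML3, while LYZ and SPI1 were above 10.8 in all arrays. CDKN2A, described as deleted in HL-60, was not lower there (8.20 to 8.65) than in OCI-AML3 (7.22 to 7.67). Of 7 measured lymphoid and erythroid markers, CD79A reached 10.5 to 10.8 in HL-60 and NCAM1 11.51 to 12.02 in OCI-AML3. The other 5 were between 2.298 and 6.004.

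The E-box CACGTG, the motif that MYC and related factors bind, was searched for in promoters from 250 bases before to 50 bases after the start (RefSeq, GRCh38.p14). It reads the same on both strands. Of the 40 genes, 34 have an entry in the promoter table, and 17 of these 34 (50%) carry the motif, beside 8.77% of 27305 genes with an entry. Shown are the promoters of the 2 measured members with an E-box and the smallest adjusted p between the untreated lines, FBL and GAR1, with the E-box in capitals. FBL starts on the minus strand of chromosome 19 (chr19:39846330-39846629), with the E-box from position 7 counted from the start. GAR1 is on the plus strand of chromosome 4, and of its 2 listed starts only the printed one (chr4:109815512-109815811) has the motif, from position 32.
FBL promoter: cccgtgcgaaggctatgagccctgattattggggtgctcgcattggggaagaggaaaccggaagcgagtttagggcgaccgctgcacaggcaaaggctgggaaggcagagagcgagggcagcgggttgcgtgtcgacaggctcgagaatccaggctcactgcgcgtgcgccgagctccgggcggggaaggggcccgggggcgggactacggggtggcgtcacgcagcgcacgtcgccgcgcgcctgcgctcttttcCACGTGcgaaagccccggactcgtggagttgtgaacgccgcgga
GAR1 promoter: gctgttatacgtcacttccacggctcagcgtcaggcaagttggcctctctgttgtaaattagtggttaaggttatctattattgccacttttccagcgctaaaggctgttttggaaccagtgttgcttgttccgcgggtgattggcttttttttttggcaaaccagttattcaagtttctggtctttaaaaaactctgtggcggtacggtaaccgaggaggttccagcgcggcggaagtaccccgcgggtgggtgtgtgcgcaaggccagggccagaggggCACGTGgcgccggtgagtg
A match describes these letters in this window and is not evidence of binding.

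The cell line was the main axis along which these genes varied. The line accounted for a median of 61.4% of the variance of a member over the 23 arrays and for 25.5% over all probe sets. Members are mostly brighter, with a smaller within-group SD, than most probe sets, and these medians were not computed for brighter probe sets alone. Over 50% of the variance lay between the lines for 22 members. The share of all probe sets is not given for this count or for the next. Within each line, the 4 group means of 33 of 34 members spanned less than 1.5-fold. The exception was TAF1A, a subunit of the promoter factor SL1 of RNA polymerase I, whose group means spanned 0.84 log2 units in HL-60 and 0.69 in OCI-AML3. NCL, the gene of the abundant nucleolar protein nucleolin, was the steadiest, with group means within 0.11 over all 8 groups.

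**Figure D1:**
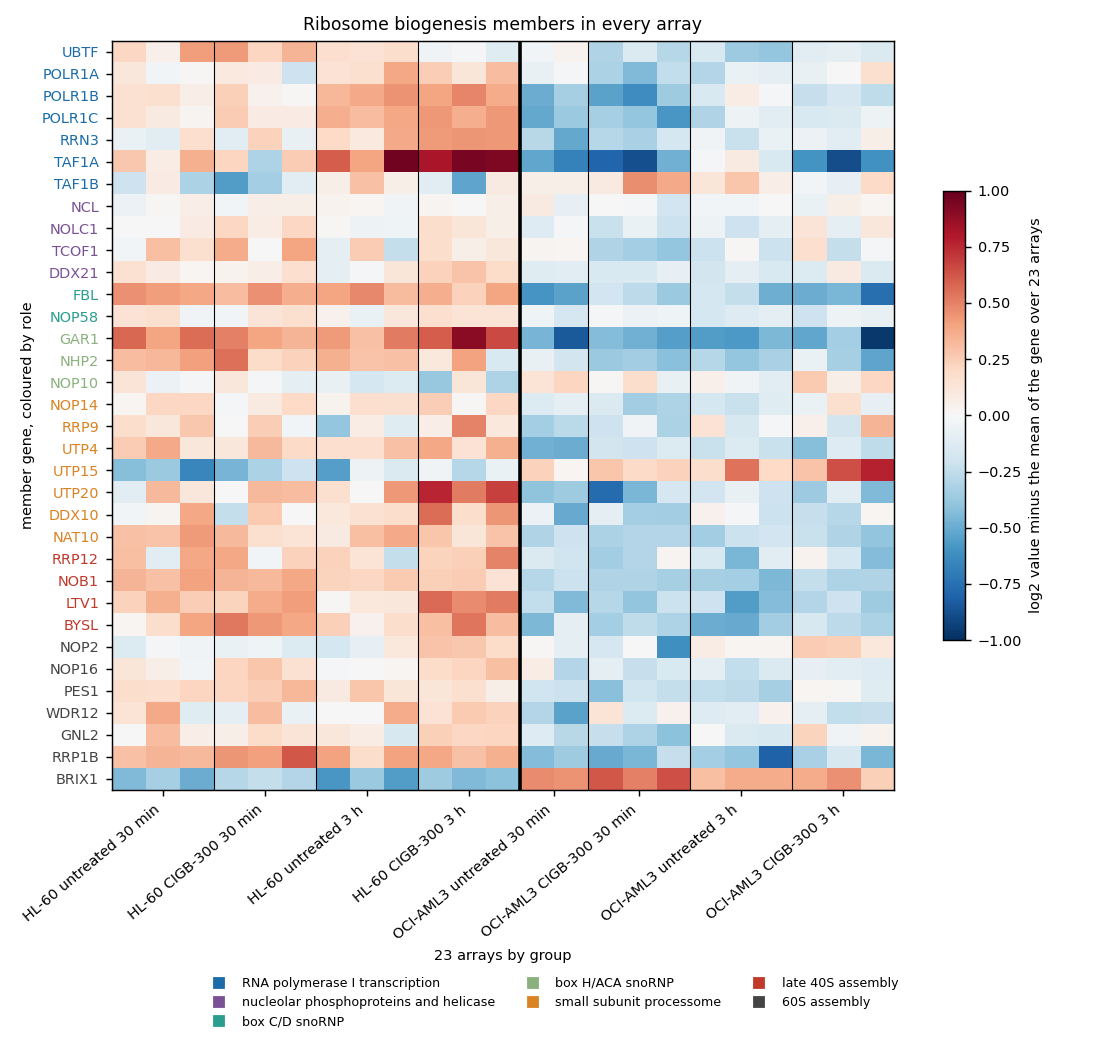
Each column is 1 of 23 arrays and each row 1 of 34 measured genes, coloured by the log2 value minus the mean of that gene over all arrays (scale from -1 to 1). Most rows change colour at the thick line between HL-60 and OCI-AML3, BRIX1 and UTP15 change the other way, and TAF1A also differs between groups within a line.

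Untreated OCI-AML3 cells had less RNA of most of the 34 measured members than untreated HL-60 cells. With the mean of both times, 24 of 34 members were lower in OCI-AML3 and 2 were higher at an adjusted p under 0.05 from limma. Over all probe sets, 24.8% were called lower and 21.6% higher. The median log2 difference, OCI-AML3 minus HL-60, was -0.33 over the members and -0.07 over all probe sets. Members are brighter than most probe sets, and among the brighter 50% of probe sets, 37.7% were called lower beside 24 of the 33 members there. Levels refer to the RNA hybridized, so fewer cells that express a gene and less RNA per cell cannot be told apart. Shifting all arrays to 1 median lowered the median of all probe sets by 0.13, gave 29 members lower and 2 higher, and kept 26 calls on the same side. This shift moves the line difference of every probe set down, and the share of all probe sets called after it is not given here. The 29 is thus not a result about the members and cannot be set beside the 24.8% of unshifted values.

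In late 40S assembly 4 of 4 genes were called lower. NOB1, the nuclease that makes the last cut of the small subunit RNA, had a lowest, median and highest value of 10.64, 10.71 and 10.83 in 6 untreated HL-60 arrays and 9.98, 10.10 and 10.21 in 5 untreated OCI-AML3 arrays. These arrays did not overlap, and NOB1 was 1.52-fold lower in OCI-AML3 (-0.60 ± 0.05, SE, adjusted p = 8.50e-09 from limma). LTV1 (-0.55), BYSL (-0.54) and RRP12 (-0.33), assembly factors of the 40S subunit, were also lower. RRP12 values overlapped, at 7.06 to 7.69 in untreated HL-60 and 6.85 to 7.19 in untreated OCI-AML3. By limma RRP12 was not called at 30 min alone (adjusted p = 0.147) or at 3 h alone (adjusted p = 0.202).

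The 2 members furthest below HL-60 were proteins of the snoRNPs that modify ribosomal RNA. GAR1, a core protein of the pseudouridine-making box H/ACA snoRNPs, was at 9.27, 9.45 and 9.55 (lowest, median, highest) in untreated HL-60 and at 8.14, 8.42 and 8.53 in untreated OCI-AML3. Its values were thus far apart, with a 2.07-fold lower mean in OCI-AML3 (-1.05 ± 0.10, adjusted p = 4.52e-08 from limma). FBL, the methyltransferase of box C/D snoRNPs, was at 11.18, 11.27 and 11.34 in HL-60 and at 10.27, 10.37 and 10.69 in OCI-AML3, again without overlap and 1.79-fold lower (-0.84 ± 0.07, adjusted p = 1.17e-08). NHP2 (-0.56) and NOP58 (-0.18), further snoRNP core proteins, were lower, and NOP10 was not called. For NOP10, HL-60 values of 10.97, 11.07 and 11.27 overlapped with OCI-AML3 values of 11.04, 11.20 and 11.36 (0.13 ± 0.09, adjusted p = 0.248).

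Of 7 genes of RNA polymerase I transcription, 6 were lower in OCI-AML3. They were the polymerase subunits POLR1A (-0.23), POLR1B (-0.48) and POLR1C (-0.52), the initiation factor RRN3 (-0.36), the ribosomal DNA binding factor UBTF (-0.34) and TAF1A. TAF1A had values of 5.26, 5.56 and 6.15 in untreated HL-60 and 4.51, 5.04 and 5.28 in untreated OCI-AML3, which overlapped slightly (-0.76 ± 0.12, adjusted p = 2.70e-05). TAF1B, the partner of TAF1A in SL1, was at 6.26, 6.64 and 6.87 in HL-60 and at 6.64, 6.65 and 6.86 in OCI-AML3, and was not called (0.11 ± 0.12, adjusted p = 0.471). Of the nucleolar phosphoproteins and helicase, DDX21 was lower (-0.18), and NCL (-0.02, 95% confidence interval from -0.14 to 0.11), NOLC1 and TCOF1 were not called.

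Subunit assembly held the exceptions to this direction. In the small subunit processome, UTP4 (-0.57), the RNA acetyltransferase NAT10 (-0.55), UTP20 (-0.42), DDX10 (-0.31) and NOP14 (-0.28) were lower and UTP15 was higher. UTP15 was at 6.01, 6.26 and 6.60 in untreated HL-60 and at 6.67, 6.85 and 7.20 in untreated OCI-AML3, without overlap (0.58 ± 0.11, adjusted p = 0.000198). In 60S assembly, RRP1B, a nucleolar partner of growing large subunits, was at 9.52, 9.68 and 9.76 in HL-60 and at 8.54, 8.96 and 9.01 in OCI-AML3, 1.71-fold lower (-0.78 ± 0.09, adjusted p = 4.99e-07). PES1 (-0.42), WDR12 (-0.37) and GNL2 (-0.22) were lower too. BRIX1, another 60S assembly factor, was at 9.10, 9.22 and 9.36 in HL-60 against 9.99, 10.06 and 10.16 in OCI-AML3, the member furthest above HL-60 (0.87 ± 0.06, 1.83-fold, adjusted p = 4.95e-10). RRP9, NOP16 and NOP2 were not called, and the values of NOP2, NOP10 and TAF1B turned below 0 once all arrays were shifted to 1 median.

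**Figure D2:**
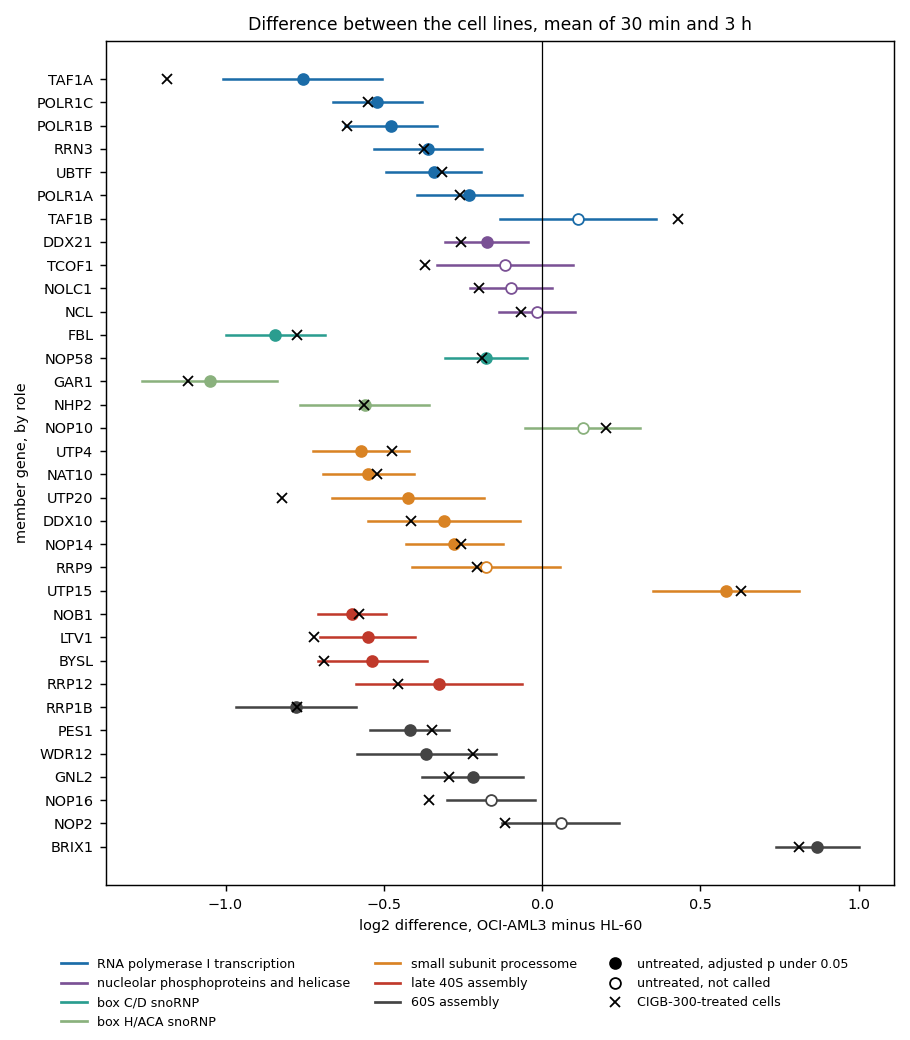
Points give the log2 difference of untreated OCI-AML3 minus untreated HL-60 (mean of 30 min and 3 h) for 34 genes with the 95% confidence interval as line, filled where the adjusted p is under 0.05, and crosses give the same difference in CIGB-300-treated cells. Filled points lie left of 0 for 24 genes and right of 0 for UTP15 and BRIX1.

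The untreated arrays of OCI-AML3 all lay below those of HL-60 for 14 members, beside 16.2% of all probe sets, and all above for BRIX1 and UTP15, beside 16.1%. With treated and untreated arrays together (12 of HL-60 and 11 of OCI-AML3), 10 members lay wholly below and 2 wholly above, beside 10.7% and 11.9% of all probe sets. In CIGB-300-treated cells, 26 members were lower in OCI-AML3, of which 23 were among the 24 of untreated cells (23 of 26 and 23 of 24), and 24.6% of all probe sets were lower. In untreated cells 18 members were lower at 30 min alone, beside 17.5% of all probe sets, and 17 at 3 h alone, beside 20.1%, from parts of the same arrays. Of the 24, DDX21, NOP58, DDX10 and RRP12 were called at neither time alone. UBTF, POLR1A and NOP14 were called at 3 h only, and UTP20, WDR12 and GNL2 at 30 min only. These comparisons of other sets of arrays were added after seeing the data. Of the context genes, MYC itself was lower in OCI-AML3 by -1.20 ± 0.08 (adjusted p = 1.28e-10 from limma), NPM1 by -0.44 and the CK2 catalytic subunit CSNK2A2 by -0.57, while CSNK2A1 (0.07) was not called. Among the 29 measured members with a promoter entry, the E-box was present in 11 of 21 lower, 0 of 2 higher and 3 of 6 not called members, and the part of MYC in these differences was not tested.

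Genes of the same pathway outside the 40 were also compared between the untreated lines. Over all probe sets, 24.8% were called lower and 21.6% higher. With the brighter probe sets alone, the shares were 37.7% lower and 34.7% higher. The lists below were not tested against these shares. Of 48 other large subunit factors 22 were lower and 8 higher, with the giant ATPase MDN1 lower (-2.10) and ZNF622 higher (1.13). Of 46 other small subunit factors 18 were lower and 11 higher, with the kinase RIOK3 lower (-1.65) and UTP25 higher (1.01). Other RNA polymerase I factors gave 7 lower and 4 higher of 13, snoRNP assembly factors 6 lower and 1 higher of 11, exosome and end-processing factors 5 lower and 7 higher of 23, and RNA polymerase III factors 6 and 6 of 20. Of 82 listed ribosomal protein genes 47 were measured, of which 30 were lower and 3 higher, with RPL11 (-0.78) and RPS12 (-0.56) among the lower.

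The question put by the design is what CIGB-300 does to these transcripts, and at 30 min in HL-60 no change was detected. None of the 34 members was called by limma at an adjusted p under 0.05, and over all probe sets 0.345% were called. An unadjusted p under 0.05 was reached by 1 member (2.94%) and by 6.29% of all probe sets. By the rule for DEGs (unadjusted p below 0.01 together with a change of 1.5-fold or more), 0 members and 0.877% of all probe sets passed. The median difference, treated minus untreated, was 0.00 over the members and -0.01 over all probe sets, and the 95% confidence interval of each of the 34 differences lay inside 1.5-fold either way. The 3 smallest p-values belonged to BYSL, BRIX1 and NOP16.

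BYSL was at 8.73, 8.88 and 9.10 in untreated and 9.23, 9.14 and 9.10 in treated HL-60 arrays at 30 min (0.25 ± 0.11, adjusted p = 0.737 from limma). BRIX1 was at 9.25, 9.36 and 9.19 untreated and 9.40, 9.45 and 9.40 treated (0.15 ± 0.08, adjusted p = 0.827). NOP16, a 60S factor, was at 9.96, 9.90 and 9.81 untreated and 10.05, 10.11 and 9.99 treated (0.16 ± 0.09, adjusted p = 0.827). The 3 treated arrays lay above all untreated ones for BRIX1 and NOP16 and touched them for BYSL. In all, 4 members had groups without overlap in this comparison, beside 12.4% of all probe sets.

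At 3 h in HL-60 LTV1 rose. Of 34 members 25 had a difference above 0 (73.5%), with a median of 0.11, while the median of all probe sets was -0.03 and 45.0% of them were above 0. This balance of signs was not tested. Without replicate 1 of the untreated cells the median fell to 0.06. By limma 1 member was called higher and 0 lower, beside 2.62% of all probe sets called higher and 5.57% called either way. At an unadjusted p under 0.05, 7 members were higher and 1 lower, 23.5% of the members beside 17.7% of all probe sets. No member was a DEG, beside 3.87% of all probe sets. A single called member of 34 is thus close to the share of all probe sets.

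LTV1, an assembly factor that leaves the maturing 40S subunit before translation, was at 9.35, 9.44 and 9.46 in the untreated and 9.91, 9.82 and 9.86 in the treated HL-60 arrays at 3 h. All treated arrays lay above all untreated ones, and the mean was 1.36-fold higher (0.44 ± 0.10, 95% confidence interval from 0.24 to 0.64, adjusted p = 0.00770 from limma). At 30 min its values were 9.57, 9.70 and 9.59 untreated and 9.57, 9.71 and 9.76 treated, so the untreated arrays at 3 h were also lower than those at 30 min (-0.20 ± 0.10, adjusted p = 0.425). In OCI-AML3 at 3 h LTV1 was at 9.13, 8.78 and 8.91 untreated and 9.04, 9.14 and 8.99 treated, which overlapped. The difference of the effect between the lines, 0.33 ± 0.13 higher in HL-60, was not called (adjusted p = 0.346).

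UTP20, a large scaffold of the small subunit processome, was at 7.69, 7.53 and 7.96 in untreated and 8.29, 8.04 and 8.21 in treated HL-60 cells at 3 h. The arrays did not overlap, but the difference missed the threshold (0.46 ± 0.15, 1.37-fold, adjusted p = 0.0999 from limma). DDX21, an RNA helicase of the nucleolus, was at 10.58, 10.65 and 10.79 untreated and 10.90, 10.95 and 10.85 treated, also without overlap (0.23 ± 0.08, adjusted p = 0.137). With limma on the brighter 50% of probe sets alone, both were called (adjusted p = 0.0437 for UTP20 and 0.0438 for DDX21). In that fit 3 of 33 members and 6.07% of the probe sets were called higher. Over 13 other fits the adjusted p ranged from 0.0437 to 0.303 for UTP20 and from 0.0251 to 0.358 for DDX21.

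Groups did not overlap in HL-60 at 3 h for 11 members higher and 1 lower. All treated arrays were above the untreated ones for 8.89% of all probe sets, and 21.5% did not overlap either way. The member wholly lower was UBTF, with 9.99, 9.96 and 9.99 untreated and 9.78, 9.81 and 9.69 treated (-0.22 ± 0.10, adjusted p = 0.224 from limma). By role, the median difference was 0.25 in late 40S assembly, 0.14 in the nucleolar phosphoproteins and helicase, 0.12 in the small subunit processome and 0.10 in 60S assembly. It was 0.03 in RNA polymerase I transcription, 0.02 in box C/D and -0.06 in box H/ACA snoRNP proteins. For 28 members the 95% confidence interval stayed within 1.5-fold.

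**Figure D3:**
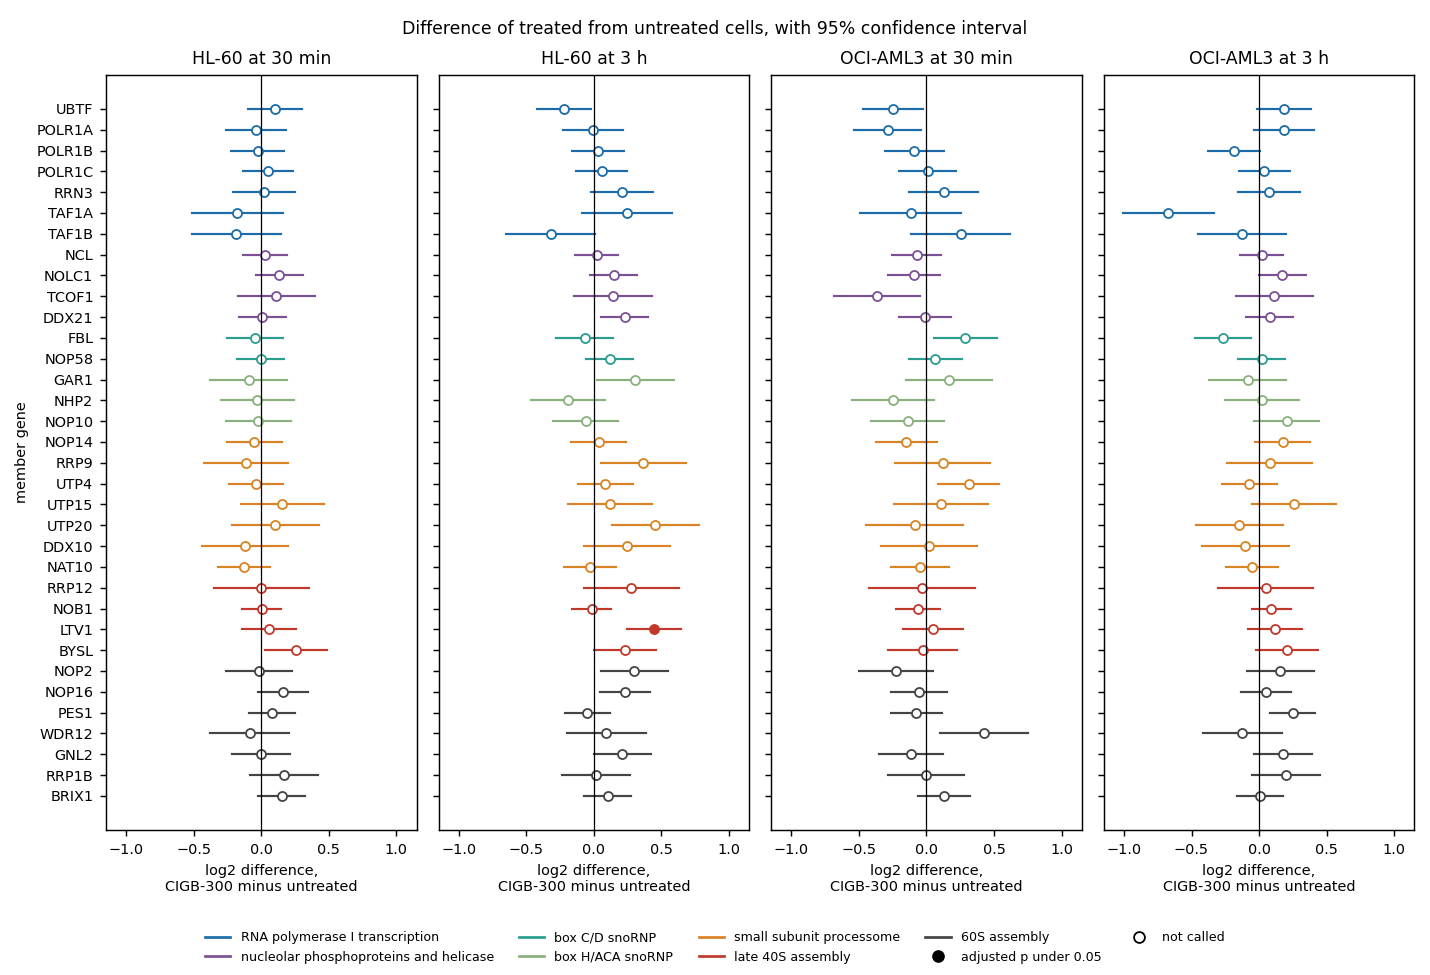
Each panel shows, for 34 genes, the log2 difference of CIGB-300-treated minus time-matched untreated cells with its 95% confidence interval, coloured by role and filled where the adjusted p is under 0.05. The only filled point is LTV1 in HL-60 at 3 h (0.44), and the lowest point is TAF1A in OCI-AML3 at 3 h (-0.67).

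Other biogenesis factors in HL-60 at 3 h included 7 genes that rose and 1 that fell among 141 measured in 5 lists. Over all probe sets, 2.62% were called higher and 5.57% either way. The share of the 141 called either way was thus close to that of all probe sets. Whether these lists differ from all probe sets was not tested. The large subunit factors NIP7 (0.43, adjusted p = 0.00426) and SBDS (0.47, adjusted p = 0.0109) rose, as did 1 further gene of 48. Of 46 small subunit factors 3 rose, among them PNO1 (0.38, adjusted p = 0.00987) and the kinase RIOK1 (0.41, adjusted p = 0.0232), all by limma. POLR1F, a subunit of RNA polymerase I, rose (0.36, adjusted p = 0.0470), and EXOSC5, a subunit of the RNA exosome, fell (-0.51, adjusted p = 0.0228). Medians were 0.10 in small and large subunit factors and 0.11 in 11 snoRNP assembly factors, of which 0 were called by limma and 2 had an unadjusted p under 0.05. The median was 0.03 in the 13 other RNA polymerase I factors and -0.01 in the 23 exosome and end-processing factors. Ribosomal protein genes lay on the other side of 0, with a median of -0.07 and 3 of 47 above 0. By limma 0 of these 47 were called, with 2 at an unadjusted p under 0.05.

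**Figure D4:**
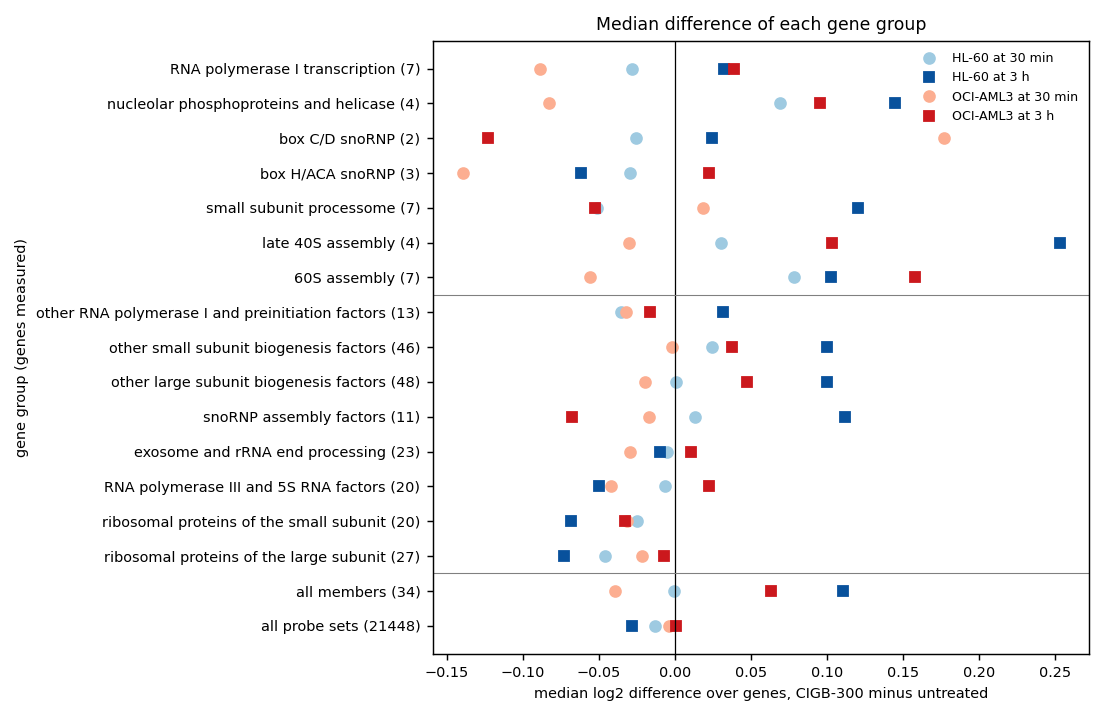
The horizontal axis gives the median log2 difference of treated minus untreated cells over the genes of a group (number measured in brackets), with 1 symbol per cell line and time. At 3 h in HL-60 the medians of the 34 members (0.11) and of small and large subunit factors (0.10) lie right of 0 and those of ribosomal proteins left of it.

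In OCI-AML3 at 30 min no member was called. By limma 0 of 34 had an adjusted p under 0.05, and 0.182% of all probe sets were called. At an unadjusted p under 0.05, 3 members were higher and 3 lower, 17.6% of the members beside 6.56% of all probe sets. No member was a DEG, beside 1.07% of all probe sets, and the median was -0.04 over the members and 0.00 over all probe sets. The intervals of 31 members stayed within 1.5-fold. These differences rest on the 2 untreated arrays of this group.

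UTP4, of the small subunit processome, was at 9.29 and 9.28 untreated and at 9.59, 9.57 and 9.64 treated (0.31 ± 0.11, adjusted p = 0.536 from limma). WDR12, a partner of PES1 in 60S assembly, was at 8.03 and 7.79 untreated and at 8.46, 8.18 and 8.37 treated (0.43 ± 0.16, adjusted p = 0.5851). FBL was at 10.27 and 10.32 untreated and at 10.67, 10.59 and 10.48 treated (0.29 ± 0.11, adjusted p = 0.612). In all 3 the treated arrays lay above the untreated ones. Without overlap were 5 members above and 6 below, among 24.1% of all probe sets that did not overlap, so such separation was common in this comparison.

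In OCI-AML3 at 3 h again no member passed the adjusted threshold, and TAF1A was the nearest to it. By limma 0 of 34 members were called, and 0.974% of all probe sets were called. At an unadjusted p under 0.05, 1 member was higher and 2 were lower, 8.82% of the members beside 11.4% of all probe sets. Of 34 members 24 had a difference above 0 (70.6%, beside 50.1% of all probe sets). The median was 0.06 over the members and 0.00 over all probe sets. It was 0.0206 without replicate 2 of the untreated cells and 0.0983 without replicate 3 of the treated cells. TAF1A alone was a DEG and was lower, beside 0.522% of all probe sets that were lower DEGs and 1.6% that were DEGs.

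TAF1A was at 5.17, 5.28 and 5.04 in untreated and 4.59, 4.30 and 4.58 in treated OCI-AML3 cells at 3 h. All treated arrays lay below the untreated ones, 1.59-fold on average (-0.67 ± 0.16, 95% confidence interval from -1.01 to -0.34, adjusted p = 0.0526 from limma). At 30 min it was at 4.67 and 4.51 untreated and at 4.40, 4.31 and 4.71 treated, so the treated arrays at 3 h were near the level of all arrays at 30 min and the untreated arrays at 3 h stood above it. In HL-60 at 3 h it was at 5.79, 5.58 and 6.15 untreated and at 6.01, 6.14 and 6.12 treated. The effect in HL-60 minus that in OCI-AML3 was 0.92 ± 0.23 (adjusted p = 0.0559), just outside the threshold. Over 12 other fits the adjusted p of the difference in OCI-AML3 ranged from 0.0278, with quantile normalization repeated, to 0.197, and over 17 fits that of the line difference from 0.0202, without replicate 3 of untreated HL-60 at 3 h, to 0.134. The gene was no DEG without replicate 2 of the treated OCI-AML3 cells. Its mean signal lies below the median of all probe sets, where detection was not tested.

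PES1, a core factor of 60S assembly, was at 9.17, 9.16 and 9.09 in untreated and at 9.44, 9.44 and 9.30 in treated OCI-AML3 cells at 3 h, without overlap (0.25 ± 0.08, adjusted p = 0.206 from limma). FBL was at 10.69, 10.62 and 10.37 untreated and 10.36, 10.40 and 10.10 treated, which overlapped (-0.27 ± 0.10, adjusted p = 0.290). FBL thus had a difference above 0 at 30 min and below 0 at 3 h in this line. The change between the times was -0.56 ± 0.15 and was not called (adjusted p = 0.199). This change rests in part on the 2 untreated arrays at 30 min. Groups were apart for 7 members above and 2 below, beside 16% of all probe sets, and 33 intervals stayed within 1.5-fold.

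**Figure D5:**
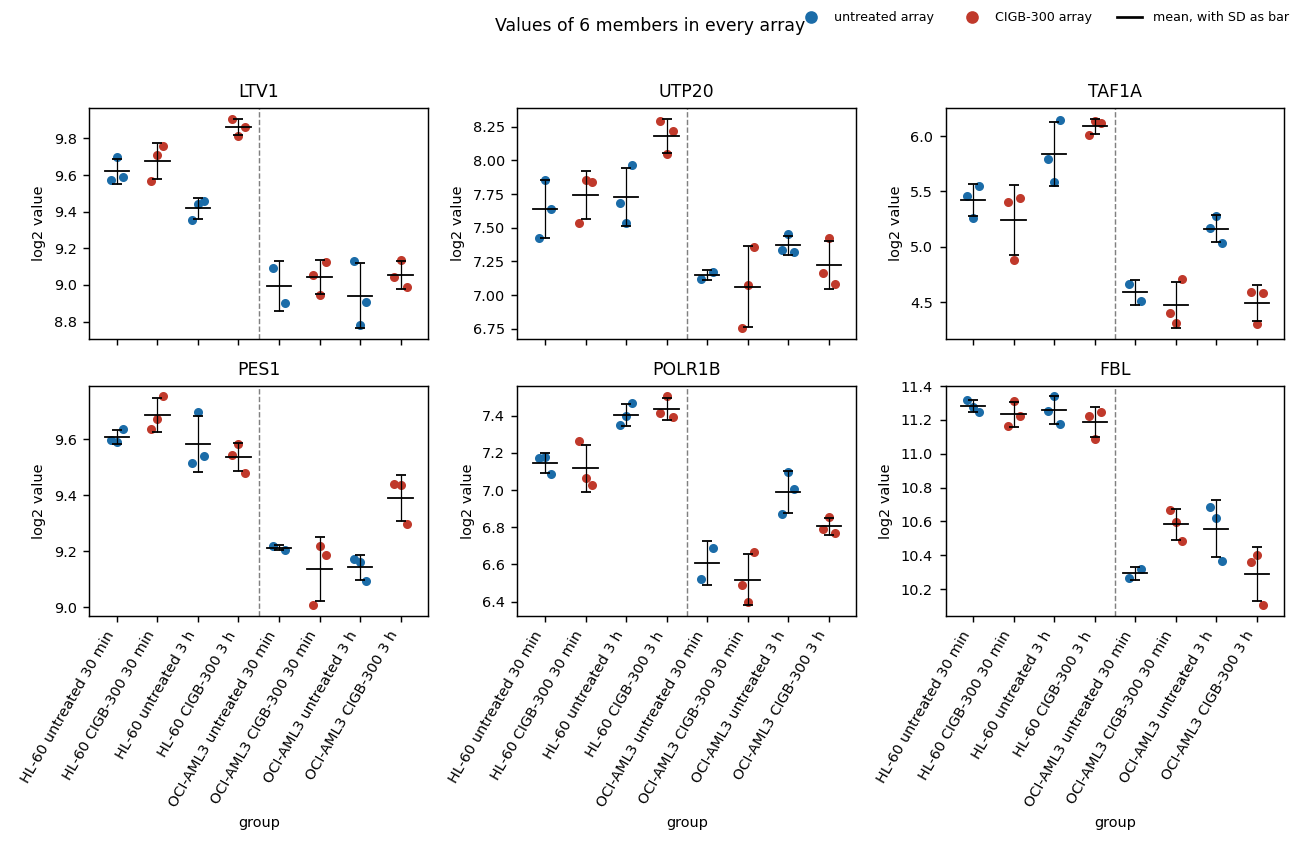
Log2 values of LTV1, UTP20, TAF1A, PES1, POLR1B and FBL in each array of the 8 groups, untreated in blue and CIGB-300-treated in red, with the mean as horizontal bar and the SD as error bar, HL-60 left and OCI-AML3 right of the dashed line. The vertical axes do not start at 0 and differ between panels, and LTV1 in HL-60 at 3 h has treated arrays at 9.82 to 9.91 above untreated ones at 9.35 to 9.46.

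No difference of the CIGB-300 effect between lines or between times was called for any member by limma. Between lines, 0.0746% of all probe sets were called at 30 min and 1.24% at 3 h. An unadjusted p under 0.05 was reached there by 5 members at each time (14.7%), beside 7.02% of all probe sets at 30 min and 11.1% at 3 h. Between 3 h and 30 min, 1.49% of all probe sets were called in HL-60 and 0.0699% in OCI-AML3. An unadjusted p under 0.05 was reached by 3 members in HL-60 (8.82%, beside 11.8% of all probe sets) and by 11 in OCI-AML3 (32.4%, beside 9.81%). The comparison in OCI-AML3 rests in part on the 2 untreated arrays at 30 min, which all members share. Comparisons at the 2 times within a line have control arrays of their own, but each effect shares its untreated arrays with the comparison of untreated cells over time. The largest gaps after TAF1A at 3 h were UTP20 (0.60 ± 0.22, adjusted p = 0.262) and UBTF (-0.41 ± 0.13, adjusted p = 0.204), as HL-60 minus OCI-AML3. The 95% confidence intervals of 22 members at each time stayed within 1.5-fold, and those of the other 12 reached beyond it.

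No member was called in untreated cells over time, and the 3 smallest p-values belonged to genes of RNA polymerase I transcription. Between 3 h and 30 min, limma called 0 of 34 members in HL-60 (0.914% of all probe sets) and 0 in OCI-AML3 (0.779% of all probe sets), with 5 (14.7%) and 8 members (23.5%) at an unadjusted p under 0.05, beside 11.6% of all probe sets in each line. The median over the members was -0.04 in HL-60 and -0.02 in OCI-AML3, where 30 min is represented by 2 arrays. Of 7 genes of RNA polymerase I transcription, 6 were above 0 in HL-60 and 5 in OCI-AML3, the same 5 in both, with medians of 0.26 and 0.28. Of the 13 other RNA polymerase I factors outside the 40, 6 were above 0 in HL-60 and 7 in OCI-AML3, with medians of -0.03 and 0.03. In the small subunit processome 3 of 7 members were above 0 in HL-60 and 6 in OCI-AML3, with medians of -0.02 and 0.21. In the 2 lines the smallest p-values belonged to the same 3 genes, POLR1B, POLR1C and TAF1A.

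POLR1B, the second-largest polymerase subunit, was at 7.17, 7.18 and 7.08 at 30 min and at 7.35, 7.40 and 7.47 at 3 h in untreated HL-60 (0.26 ± 0.09, adjusted p = 0.240 from limma). In untreated OCI-AML3 it was at 6.52 and 6.69 and then at 6.87, 7.10 and 7.00 (0.38 ± 0.10, adjusted p = 0.0932), so arrays of the times did not overlap in either line. POLR1C, a subunit shared with RNA polymerase III, was at 9.55, 9.48 and 9.42 and then at 9.76, 9.71 and 9.78 in HL-60 (0.26 ± 0.09, adjusted p = 0.208). It was at 8.88 and 9.02 and then at 9.09, 9.35 and 9.29 in OCI-AML3 (0.29 ± 0.10, adjusted p = 0.221), again without overlap. TAF1A, with the values given above and 5.46, 5.26 and 5.55 in HL-60 at 30 min, differed by 0.42 ± 0.16 in HL-60 (adjusted p = 0.284) and 0.57 ± 0.18 in OCI-AML3 (adjusted p = 0.159). At 3 h, all arrays were above those at 30 min for 4 members and below for 4 in HL-60, and above for 11 and below for 7 in OCI-AML3, beside 17.5% and 28.7% of all probe sets either way. With the brighter 50% of probe sets alone, of which 2.56% were called higher, POLR1B in OCI-AML3 was called (adjusted p = 0.0278, range over 12 fits from 0.0278 to 0.493). In these comparisons UTP25 in HL-60 (0.46) and WDR75 (0.47) and NOC3L (0.59) in OCI-AML3, all ribosome biogenesis factors outside the 40, rose at an adjusted p under 0.05.

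The genes of the CK2 catalytic subunits and NPM1, with MYC, stood beside the members without a call under CIGB-300. Of 5 listed context genes 4 were measured, and of CK2 these were CSNK2A1 and CSNK2A2 alone. By limma 0 of these 4 genes were called in any of the 4 comparisons, and CSNK2A2 (-0.22) and CSNK2A1 (-0.21) in HL-60 at 3 h and MYC (0.31) in OCI-AML3 at 30 min had an unadjusted p under 0.05. Of 7 myeloid markers 0 were called by limma in the 4 comparisons, and 1, MPO in OCI-AML3 at 30 min, was a DEG (1.28, adjusted p = 0.413). Of 3 measured line markers 0 were called and none was a DEG, with 1 at an unadjusted p under 0.05 in OCI-AML3 at 30 min. Of the 7 lymphoid and erythroid markers only HBA1 in HL-60 at 3 h was called (0.73, adjusted p = 0.0140), at values of 4.899 to 6.004 over all HL-60 arrays. It was also a DEG. At 30 min CD3E in HL-60 (0.73, adjusted p = 0.263) and CD79A in OCI-AML3 (0.74, adjusted p = 0.219) were DEGs without a call. The part of these markers in the results was not tested.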

How the data were processed

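Total RNA from both AML lines was measured on Clariom S HT arrays, 23 in 8 groups. The authors adjusted background, normalized quantiles and summarised probe sets by RMA (version not given in the sources used here), and the deposited values are log2 signals, used unchanged. Of 27189 features 5741 controls were left out. Group means of all 23 arrays were estimated in a single linear model with limma 3.58.1 under R 4.3.3 (eBayes at its defaults), and p was adjusted by Benjamini-Hochberg over 21448 probe sets per comparison. "Rose", "fell" and "called" mean an adjusted p under 0.05. Errors after ± are SE. Intervals are 95%. Promoters were searched and figures drawn in Python 3.11.15 (pandas 2.3.3, matplotlib 3.10.9). The calculation was tested on simulated data. Depth does not apply, and the number of arrays limits the precision.

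The members and lists were chosen with earlier results of these data known. Values in every array are given for called members and the 3 members with the smallest p per treatment comparison and for the 3 smallest p over time in each line, and the lowest, median and highest value for the 4 largest differences each way between untreated lines. For context lists counts and up to 2 called genes each way are given. NOB1 and UBTF were added after their values were seen. Titles of the untreated OCI-AML3 samples at 3 h read 30 h, and the time label was used. Alternatives were a model per cell line, a block for the replicate number, trended and robust variance, weighted arrays, arrays shifted to 1 median, repeated quantile normalization, the brighter 50% of probe sets, adjusted p of 0.10 and 0.01, and omission of each array in turn.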

Additional observations from a re-analysis of the deposited data

How the results depend on the processing

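LTV1 in HL-60 at 3 h stayed called under every fit run (adjusted p from 0.000562 to 0.0391 over 13 fits). There 2 members were called with a trended and robust variance, 3 with the brighter 50% of probe sets alone and 2 at an adjusted p under 0.10, in place of 1. Of those brighter probe sets, 6.07% were called higher and 8.9% lower. For the other settings the share of all probe sets is not given here. In OCI-AML3 at 3 h 1 member, TAF1A, in place of 0 was called lower with arrays shifted to 1 median, quantiles normalized again or an adjusted p under 0.10, and the same 3 settings called 1 in place of 0 for the line difference at 3 h. With the replicate block, TAF1A was called in both (1 in place of 0, adjusted p = 0.0412 and 0.0390), and no other call changed side except in the untreated line comparison, where 23 members were lower. The main fit did not pair arrays by number. Same-numbered treated and untreated arrays correlated at -0.01 to 0.08, while 13 of 23 arrays correlated best with an array of their own number. Whether arrays of 1 number belong together was not tested. A trended and robust variance called 1 member lower for OCI-AML3, 3 h minus 30 min. Bright probe sets alone, which drop TAF1A, left 0 DEGs in OCI-AML3 at 3 h and called 1 member higher in untreated OCI-AML3 over time, as did an adjusted p under 0.10. Between untreated lines, the median of -0.33 was -0.46 with arrays shifted to 1 median, where NOP10 (-0.0023) and TAF1B (-0.018) turned, and -0.39 at 30 min alone. In treated cells 4 members were higher. At an adjusted p under 0.01, 18 were lower. Leaving out 1 array gave 18 to 23 lower and medians of -0.37 to -0.29 between lines, medians of 0.0637 to 0.134 in HL-60 at 3 h and -0.026 to 0.0534 in untreated OCI-AML3 over time, 0 to 1 member for the line difference at 3 h (1 without replicate 3 of untreated HL-60 at 3 h, adjusted p = 0.0202) and 0 to 1 DEG in OCI-AML3 at 3 h. Each member has 1 probe set, so averaging probe sets was not run. Where an arm kept 1 array, its spread was taken from the remaining groups. Causes were not tested. Of 599 counts and medians set against the reported ones, 575 stayed within the limits used. The limit was a ratio of 1.5 for a count and the SD between replicates for a median. Most reported counts were 0, where staying within the limit says little, and values of single genes are not in this tally.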
